A study of Homo sapiens with 6 samples.

Results

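The hypoxia genes described here were 10 genes of the oxygen-sensing pathway and its targets in SW480 cells, 6 of which were higher and 4 of which were lower after MPM-1. They were selected by gene symbol from a table of 12982 genes, and all 10 were found. The set was chosen by its differences between MPM-1 and DMSO in these same libraries, so those differences are given below as a description and carry no test. SW480 is an established human colorectal adenocarcinoma line, and the label gives its genotype as WT. MPM-1, called WT4 in the labels, is described by the submitters as a mitochondrial probe molecule. RNA was sequenced from cells exposed to MPM-1 or to the solvent DMSO for 24 h, with 3 libraries per treatment, and the labels name no low-oxygen culture for either group. The dose used for sequencing was not given in the sources used here, and nothing states that the libraries came from separate cultures, so the p-values measure only the spread between these libraries, which may be technical.

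Cells sense oxygen through the EGLN prolyl hydroxylases, which use oxygen and iron to hydroxylate the alpha subunits of hypoxia-inducible factor (HIF). Hydroxylated HIF alpha is recognised by the VHL ubiquitin ligase and degraded. When oxygen is short the alpha subunits, encoded by HIF1A and EPAS1, are spared, pair with ARNT and switch on genes for blood vessel growth, pH control, glucose use and their own hydroxylases. This control acts mainly on the HIF alpha proteins, and no protein was measured in these data. Several of the targets are also known to respond to other stress pathways.

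The core of the DNA element bound by HIF reads ACGTG or GCGTG. Promoters from RefSeq (GRCh38.p14), running from 250 bases before to 50 bases after the transcript start, were read for 8 of the 10 genes. VEGFA and NDRG1, both higher after MPM-1, were not read. Of the 8 genes, 7 held a core match on either strand in at least 1 promoter. Among all 35116 promoters of this length, 21.4% held ACGTG, 36.5% held GCGTG and 48.5% held either. These shares are per promoter, whereas 2 of the 8 genes had several promoters in which a match could lie. Stretches around the matches are shown for 3 genes that were lower and 3 that were higher after MPM-1, to show which core letters stood near the starts of genes of either direction. The 3 lower genes held ACGTG and the 3 higher ones GCGTG, a split seen in a few genes that were chosen by their direction, from which nothing is read. The capitals mark the core, and where they read CACGT the ACGTG lies on the other strand.
CA9, lower, chr9:35673882-35673942, plus strand: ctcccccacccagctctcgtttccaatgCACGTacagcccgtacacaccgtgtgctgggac
ANKRD37, lower, chr4:185396651-185396730, plus strand: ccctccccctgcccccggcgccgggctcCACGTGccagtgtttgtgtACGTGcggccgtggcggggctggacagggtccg
EGLN1, lower, chr1:231422268-231422328, minus strand: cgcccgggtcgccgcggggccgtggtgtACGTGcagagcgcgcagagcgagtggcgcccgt
ADM, higher, chr11:10304944-10305004, plus strand: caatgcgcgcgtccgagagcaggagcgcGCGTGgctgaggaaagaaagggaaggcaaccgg
EPAS1, higher, chr2:46297262-46297322, plus strand: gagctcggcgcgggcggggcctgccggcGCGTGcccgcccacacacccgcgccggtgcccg
KDM3A, higher, chr2:86441317-86441377, plus strand: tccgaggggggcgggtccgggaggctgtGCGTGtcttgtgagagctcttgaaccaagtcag

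In these 6 genes the first core base lay 18 bases before the start in CA9, 13 bases before it in EGLN1, 101 in ADM and 117 in EPAS1. ANKRD37 held 3 matches, of which the pair at 162 and 161 bases before the start are the 2 strands of a single CACGTG, a letter run present in 7.26% of all promoters and also known as an E-box, and the third lay at 143. KDM3A has 2 RefSeq starts, and the same match lay 26 bases before one and 116 before the other. HIF1A held a GCGTG 204 bases before one of its 2 starts and none before the other, and the EGLN3 window held neither core. A match is a description of letters and not of binding.

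The 6 libraries held 32095456 to 40269820 counts under DMSO and 31733667 to 35403841 under MPM-1. Levels are compared between libraries in CPM, which are counts brought to one depth by TMM-adjusted library sizes. A gene listed at 0 could have had a true level of 3 counts, equal to 0.0695 to 0.0985 CPM depending on the library, and this limit covers counting error only. Over the whole table, 725 genes (5.58%) were higher and 1136 (8.75%) were lower when called by edgeR's quasi-likelihood test (adjusted p below 0.01, log2 fold change beyond 1 or -1), 14.3% in all. All 10 hypoxia genes passed the low-count filter, which removed no gene, and 7 of them stood past both thresholds, 4 higher and 3 lower. EGLN1, HIF1A and KDM3A fell short of the fold threshold. In all 10 the CPM of the 3 MPM-1 libraries lay wholly on one side of the 3 DMSO libraries, as it did in 64.3% of all genes. Since these genes were picked from this contrast, nothing is read from either count. Of 12 colorectal epithelial markers 11 were detected, with EPCAM at 347 to 424 FPKM (the deposited values scaled for transcript length and depth) and LGR5 at 0.0489 to 0.876 FPKM. CD68 and CD14 were the only ones detected among 5 leukocyte markers, with a summed level of 36.9 to 50.4 FPKM under DMSO and 70.8 to 74.7 FPKM under MPM-1. COL1A1 and PDGFRB, of 5 fibroblast markers, summed to at most 0.919 FPKM in any library, and the 4 endothelial markers were not among the genes analysed here. The epithelial markers summed to 4837 to 5558 FPKM under DMSO and 6742 to 7205 FPKM under MPM-1. The largest of them over all libraries were KRT8 (1997 to 2660 FPKM), KRT18 (1180 to 2085 FPKM) and KRT19 (1116 to 2157 FPKM). CDX2 ranged from 2.88 to 22.0 FPKM and KRT20 from 1.30 to 7.72 FPKM. The part of these markers in the results was not tested.

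The EGLN hydroxylases were both lower after MPM-1, by very different amounts. EGLN3 (ENSG00000129521, GRCh38 chromosome 14, 33924231 to 34462774), a hydroxylase that is itself a classical HIF target, stood at 17.4, 16.7 and 17.5 CPM in the DMSO libraries and at 1.44, 3.67 and 2.35 CPM in MPM-1 replicates 1 to 3. The DMSO libraries were nearly equal, and the highest MPM-1 library was far below the lowest of them. Its mean was 17.2 ± 0.452 CPM under DMSO and 2.49 ± 1.12 CPM under MPM-1 (SD, n = 3 each). The log2 fold change of EGLN3 was -2.79 (standard error 0.28), the 94th most negative of the table. EGLN1 (ENSG00000135766, GRCh38 chromosome 1, 231363751 to 231425044), generally regarded as the main hydroxylase setting HIF alpha levels in normal oxygen, stood at 95.9, 104 and 100.02 CPM under DMSO and at 68.9, 68.8 and 67.6 CPM under MPM-1. Its libraries were tight within each treatment and did not overlap between treatments, as in 64.3% of all genes. The log2 fold change of EGLN1 was -0.55 (standard error 0.07), or 1.46-fold lower.

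On the per-length FPKM scale, EGLN1 was 2.10, 2.39 and 2.19 times as abundant as EGLN3 in the DMSO libraries. After MPM-1 this ratio was 18.4, 7.12 and 11.2, so every MPM-1 library was above every DMSO library. The mean ratio went from 2.23 ± 0.147 to 12.2 ± 5.73 (SD, n = 3 each). The remaining family member, EGLN2, was not called, at 37.8 ± 7.61 and 29.4 ± 7.51 CPM (log2 fold change -0.37, edgeR adjusted p = 0.122). EGLN2 shares 2012 exonic bases on the same strand with the readthrough gene RAB4B-EGLN2, which the table counts apart, so its level is uncertain. The DMSO library with the most EGLN2 (46.6 CPM) had the least RAB4B-EGLN2 (14.1 CPM), as did the MPM-1 library with the most EGLN2 (37.9 and 13.9 CPM).

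The HIF alpha transcripts were both higher after MPM-1. HIF1A (ENSG00000100644, GRCh38 chromosome 14, 61695513 to 61748259) stood at 48.7, 56.1 and 54.7 CPM under DMSO and at 71.9, 67.6 and 78.3 CPM under MPM-1. EPAS1 (ENSG00000116016, GRCh38 chromosome 2, 46293667 to 46386703), which encodes the related subunit also called HIF-2 alpha, stood at 19.2, 16.7 and 13.7 CPM under DMSO and at 43.6, 33.5 and 42.5 CPM under MPM-1. Neither gene overlapped between treatments, as 64.3% of all genes did not, and the shift was larger in EPAS1. Its log2 fold change was 1.27 (standard error 0.15), against 0.45 (standard error 0.09) for HIF1A. In FPKM, HIF1A was 3.35, 4.48 and 5.31 times as abundant as EPAS1 in DMSO replicates 1 to 3 and 2.20, 2.69 and 2.44 times as abundant in MPM-1 replicates 1 to 3. The ratio was lower in each MPM-1 library than in any DMSO library, with means of 4.38 ± 0.984 and 2.44 ± 0.244 (SD, n = 3 each). HIF1A remained the more abundant of the pair throughout.

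**Figure D1:**
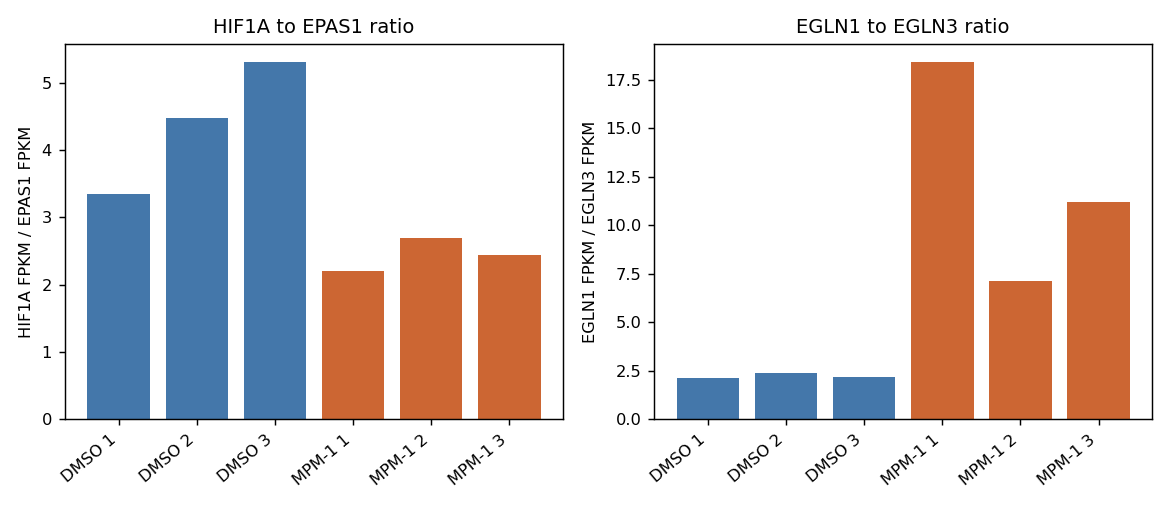
Ratio of FPKM values in each of the 6 libraries for HIF1A over EPAS1 (left) and EGLN1 over EGLN3 (right), one bar per library with DMSO in blue and MPM-1 in orange. The HIF1A to EPAS1 ratio lies at 3.35 to 5.31 under DMSO and 2.20 to 2.69 under MPM-1, while the EGLN1 to EGLN3 ratio goes from 2.10 to 2.39 up to 7.12 to 18.4.

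The secreted angiogenic factors and NDRG1 held the largest rises of the set. ADM (ENSG00000148926, GRCh38 chromosome 11, 10304680 to 10307397) encodes adrenomedullin, a peptide hormone that widens and protects vessels. It stood at 2.09, 1.57 and 2.13 CPM under DMSO and at 22.9, 12.4 and 16.0 CPM under MPM-1, and the lowest MPM-1 library was well above the highest DMSO library. ADM had a log2 fold change of 3.15 (standard error 0.26), or 8.85-fold, and ranked 45th of 12982 genes by rise. VEGFA (ENSG00000112715, GRCh38 chromosome 6, 43770184 to 43786487), the main growth factor for blood vessels, stood at 50.3, 53.8 and 55.3 CPM under DMSO and at 203, 132 and 149 CPM under MPM-1. Its DMSO libraries lay close together and its MPM-1 libraries spread more widely. The log2 fold change of VEGFA was 1.60 (standard error 0.14), or 3.03-fold.

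NDRG1 (ENSG00000104419, GRCh38 chromosome 8, 133237171 to 133302022) encodes a cytoplasmic protein that responds to stress and differentiation and to low oxygen or iron. It stood at 153, 133 and 167 CPM under DMSO and at 885, 568 and 651 CPM under MPM-1. The log2 fold change of NDRG1 was 2.22 (standard error 0.16), or 4.65-fold. MPM-1 replicate 1 held the highest value for ADM, VEGFA, NDRG1 and EPAS1 and replicate 2 the lowest, so the order of the MPM-1 libraries was shared by these 4 genes. KDM3A (ENSG00000115548, GRCh38 chromosome 2, 86440647 to 86492716), an oxygen-dependent histone H3 lysine demethylase, shifted least. It stood at 34.4, 40.5 and 39.7 CPM under DMSO and at 44.3, 46.9 and 51.8 CPM under MPM-1, a log2 fold change of 0.32 (standard error 0.10). In FPKM the KDM3A libraries overlapped, since MPM-1 replicate 1, at 5.90 FPKM, was below all 3 DMSO libraries (6.44 to 8.18 FPKM). For KDM3A the ratio of CPM to FPKM differed by up to 1.55-fold between libraries, the widest of the 10 genes.

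The strongest fall of the set was in CA9 (ENSG00000107159, GRCh38 chromosome 9, 35673856 to 35681159), a cell-surface carbonic anhydrase that is widely used as a marker of HIF activity. Its counts were 105, 100 and 152 under DMSO and 12, 0 and 6 in MPM-1 replicates 1 to 3, where the 0 leaves room for 0.0976 CPM. In CPM these were 3.18, 2.32 and 3.82 under DMSO and 0.394, 0 and 0.179 under MPM-1. The MPM-1 libraries were all near the detection limit and far below the DMSO libraries. The log2 fold change of CA9 was -4.00 (standard error 0.65), the 19th most negative of the table, and it moved to -5.00 without MPM-1 replicate 1 and to -3.41 without MPM-1 replicate 2. CA9 shares 643 of its 1670 annotated exonic bases with ARHGEF39, a gene on the other strand that also fell, from 27.7 ± 1.21 to 9.43 ± 1.27 CPM (log2 fold change -1.56, edgeR adjusted p = 1.21e-05). The sources used here do not say whether the counting used strand, so reads in the shared bases cannot be told apart. In MPM-1 replicates 1 to 3, ARHGEF39 had 244, 322 and 329 counts, where CA9 had 12, 0 and 6. The part of ARHGEF39 in the CA9 counts was not tested.

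ANKRD37 (ENSG00000186352, GRCh38 chromosome 4, 185396021 to 185400628), a small ankyrin repeat protein gene known as a HIF target, had 120, 208 and 348 counts under DMSO and 51, 62 and 47 under MPM-1. These were 3.64, 4.82 and 8.74 CPM and 1.67, 2.02 and 1.40 CPM. The DMSO libraries spread widely, yet the lowest of them was above every MPM-1 library. The log2 fold change of ANKRD37 was -1.76 (standard error 0.34). ANKRD37 shares 909 exonic bases with UFSP2 on the other strand, which stood at 32.0 ± 1.36 CPM under DMSO and 38.1 ± 2.35 CPM under MPM-1.

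**Figure D2:**
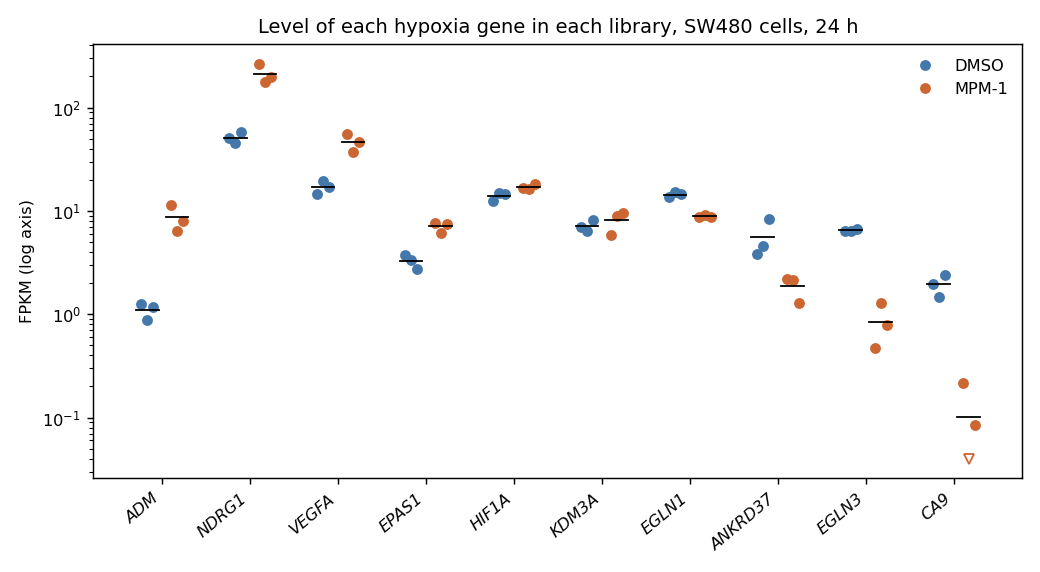
FPKM on a log axis of each of the 10 genes in each library, DMSO in blue and MPM-1 in orange, with the mean as a black line and the genes ordered by fold change. ADM, NDRG1, VEGFA and EPAS1 lie higher after MPM-1 and ANKRD37, EGLN3 and CA9 lower, and the open triangle marks the MPM-1 library in which CA9 was listed at 0.

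Compared per length, NDRG1 was the most abundant transcript of the set in both treatments, at 51.2 ± 5.91 FPKM under DMSO and 213 ± 46.6 FPKM under MPM-1 (SD, n = 3 each), followed by VEGFA at 17.1 ± 2.40 and 46.3 FPKM, with 37.1 to 55.0 FPKM in the single MPM-1 libraries. Under DMSO the order then ran EGLN1, HIF1A, KDM3A, EGLN3, ANKRD37, EPAS1, CA9 and ADM. The ranges of VEGFA and EGLN1 overlapped there, as did those of EGLN1 and HIF1A, of KDM3A and EGLN3, and of EGLN3 and ANKRD37, so these neighbours are not separated by their spread. ADM was the least abundant of the 10 under DMSO (1.09 ± 0.198 FPKM) and the fifth under MPM-1 (8.63 ± 2.60 FPKM), where its range overlapped those of EGLN1, KDM3A and EPAS1. EGLN3 moved the other way, from 6.47 ± 0.152 to 0.844 ± 0.404 FPKM. CA9 was last under MPM-1, listed at 0 in 1 library and at 0.0851 and 0.217 FPKM in the others.

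**Figure D3:**
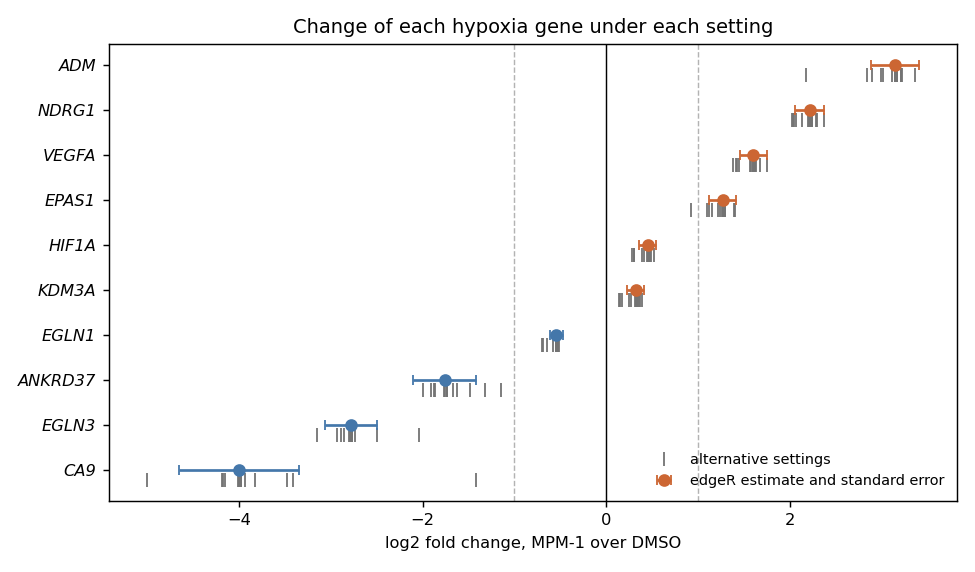
Log2 fold change (MPM-1 over DMSO) of the 10 genes with its standard error from edgeR, and as grey ticks the value under each alternative setting, with dashed lines at 1 and -1. No tick crosses 0, and the widest spread is that of CA9, from -5.00 to -1.42.

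Genes whose profile over the 6 libraries was most like that of ADM, the largest rise, were sought over the whole table by the root mean square difference of centred log2 CPM. They were DUSP1, a phosphatase of MAP kinases (0.152), VGF, a secreted neuropeptide precursor (0.160), and BHLHE40, a transcriptional repressor (0.175). For CA9 the nearest were FXYD6, a regulator of the sodium pump (0.374), NewGene_2686, which has no annotation (0.494), and ANKRD40CL (0.504). The profiles of the CA9 neighbours were less close, and CA9 counts are sparse under MPM-1.

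Other genes of the pathway, which the set leaves out, were then counted from lists written from general knowledge. Earlier results of these data were known when the lists were written, so the shares called are a description. Of 28 genes for oxygen sensing and HIF partners 26 were tested, and 1 was called higher and 1 lower (3.85% each, against 5.58% and 8.75% of all genes), with a median log2 fold change of -0.055, against -0.026 over all genes. The higher one was OS9, a lectin of the endoplasmic reticulum (78.7 ± 5.55 to 180.0 ± 19.9 CPM, log2 fold change 1.19, edgeR adjusted p = 1.11e-05), and with limma on log2(FPKM + 1) it fell short of the fold threshold (0.98). The lower one was CITED2, which competes with HIF alpha for its coactivators, at 14.1, 11.04 and 10.8 CPM under DMSO and 2.99, 7.93 and 5.33 CPM under MPM-1 (log2 fold change -1.14, edgeR adjusted p = 0.00976). The CITED2 call was lost without any 1 of DMSO replicates 1, 2 and 3 or of MPM-1 replicates 1 and 3, where the log2 fold change lay between -1.21 and -0.84. HIF1AN, the asparaginyl hydroxylase that blocks HIF alpha from its coactivators, passed the p threshold but not the fold threshold (39.7 ± 3.64 to 20.4 ± 3.32 CPM, log2 fold change -0.96, adjusted p = 0.000218), and it shares exonic bases with NDUFB8 on the other strand. HIF1AN passed both thresholds without DMSO replicate 1 (-1.04), without MPM-1 replicate 2 (-1.05), with library size alone (-1.11) and with limma on log2(FPKM + 0.1) (-1.12). VHL and ARNT passed neither threshold, with log2 fold changes of -0.29 (adjusted p = 0.0134) and 0.44 (adjusted p = 0.0174), and HIF3A was not among the genes analysed here.

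Of 60 HIF targets outside glucose metabolism 48 were tested, with 12 called higher and 4 lower. These were 25.0% and 8.33%, where 5.58% and 8.75% of all genes were called in these directions. The median log2 fold change of the 48 was 0.46. IGFBP3, a binding protein for insulin-like growth factors, had the largest rise, from 1.44 ± 0.505 to 34.8 ± 9.36 CPM (SD, n = 3 each; log2 fold change 4.59, edgeR adjusted p = 2.20e-06). BHLHE40 followed with a log2 fold change of 2.85 (adjusted p = 5.19e-06). The largest falls by log2 fold change were in PPFIA4, a liprin scaffold (-1.78, adjusted p = 0.000798), FAM13A (-1.21, adjusted p = 0.00956) and HILPDA, a lipid droplet protein (-1.08, adjusted p = 0.000477). The FAM13A call was lost when any 1 of DMSO replicates 1 to 3 or MPM-1 replicates 1 and 2 was left out (log2 fold change -1.22 to -0.92, adjusted p 0.0211 to 0.0306) and with DESeq2 size factors (adjusted p = 0.0101), and HILPDA fell short of the fold threshold without MPM-1 replicate 1 (-0.95). The remaining lower gene was CA12, a carbonic anhydrase. The share called lower was thus close to that of all genes. A further list held 40 ATF4 and CHOP targets, which answer amino acid and endoplasmic reticulum stress, and 33 were tested. Of these 17 were called higher (51.5%, against 5.58% of all genes), among them DDIT4, which is on both lists. The median log2 fold change of the 33 was 1.04. At the top were ATF3 (3.08, edgeR adjusted p = 5.11e-06), DDIT3 (2.98, adjusted p = 3.06e-06) and PPP1R15A (2.50, adjusted p = 8.46e-06). ATF4 itself (1.04, adjusted p = 1.31e-05) and DDIT3, which encodes CHOP, were among the 33. DDIT3 shares exonic bases with MARS and MBD6 on the other strand and is uncertain to that extent. The edgeR test called none of the 33 lower, and neither did DESeq2. At an edgeR adjusted p under 0.05 without a fold threshold 2 of the 33 were lower, as were 3740 of all 12982 genes. The part of ATF4, CHOP and other regulators of these genes in the rises of ADM, VEGFA and NDRG1 was not tested.

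Of 27 targets of glucose metabolism tested, 2 were called higher and 2 lower (7.41% each), close to the 5.58% and 8.75% of all genes, with a median log2 fold change of -0.23. At an edgeR adjusted p under 0.05 without a fold threshold, 7 of the 27 were higher and 13 lower. Over all 12982 genes these counts were 3596 and 3740. SLC2A3, a glucose transporter, rose from 28.6 ± 7.23 to 218 ± 35.4 CPM (log2 fold change 2.94, edgeR adjusted p = 2.49e-06), and HK2, the inducible hexokinase, rose by 1.09 (adjusted p = 0.000171). ALDOC, an aldolase, had a log2 fold change of -1.34 (adjusted p = 5.50e-05), and PDK3, which inhibits pyruvate dehydrogenase, had -1.10 (adjusted p = 0.00154). The HK2 call was lost without MPM-1 replicate 1 (0.996) and the PDK3 call without MPM-1 replicate 3 (-0.91).

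**Figure D4:**
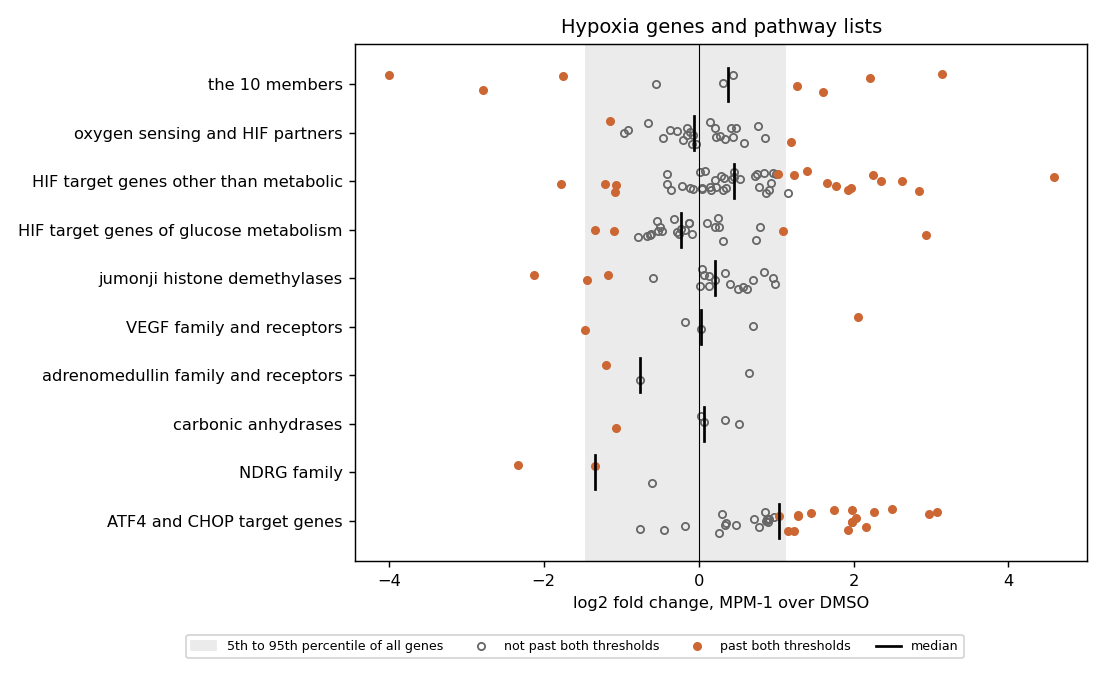
Log2 fold change (MPM-1 over DMSO) of each tested gene of the set and of 9 pathway lists, 1 point per gene and filled where both thresholds were passed, with list medians as black lines and the 5th to 95th percentile of all genes (-1.45 to 1.11) shaded. Points lie on both sides of 0 in every list but the NDRG family, and the ATF4 and CHOP list has the highest median, 1.04.

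The lists of relatives and receptors of single genes of the set are short, and their counts are read only gene by gene, beside the 5.58% of all genes called higher and 8.75% called lower. Of the VEGF family and receptors besides VEGFA, 5 of 9 were tested, with 1 called higher and 1 lower and a median log2 fold change of 0.033. NRP1, a co-receptor for VEGFA, stood at 14.1, 12.0 and 13.6 CPM under DMSO and 56.5, 53.6 and 54.7 CPM under MPM-1 (log2 fold change 2.05, edgeR adjusted p = 5.66e-07), while PGF, placental growth factor, stood at 38.7, 31.1 and 32.1 CPM and 11.8, 12.6 and 12.3 CPM (-1.47, adjusted p = 8.71e-06). NRP2 (0.71, adjusted p = 0.000940), FLT1 (0.033, adjusted p = 0.929) and VEGFB (-0.18, adjusted p = 0.234) were not called, and the FLT1 value changed sign without MPM-1 replicate 3 and with scaling by library size alone. Of 8 genes related to adrenomedullin 3 were tested, with 1 called lower and a median of -0.76. RAMP1, a partner of its receptor family, went from 24.1 ± 3.20 to 10.5 ± 0.427 CPM (-1.20, adjusted p = 5.89e-05), and the related peptide genes ADM2 (0.65, adjusted p = 0.00104) and ADM5 (-0.76, adjusted p = 0.125) were not called. ADM5 shares exonic bases with PRMT1 on the same strand and is uncertain.

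The relatives of NDRG1 were lower where NDRG1 was higher, with 2 of 3 called lower and a median log2 fold change of -1.33. NDRG2 stood at 14.6, 14.3 and 13.1 CPM under DMSO and at 2.76, 3.35 and 2.26 CPM under MPM-1 (log2 fold change -2.33, edgeR adjusted p = 1.04e-05), and NDRG4 went from 10.5 ± 0.747 to 4.14 ± 0.694 CPM (-1.33, adjusted p = 0.000247). NDRG3 was not called at the fold threshold (-0.60, adjusted p = 0.000782). The share of NDRG1 in the summed FPKM of the 4 genes went from 69.3 ± 2.40% to 95.6 ± 0.910% (SD, n = 3 each). Of 14 carbonic anhydrase genes listed besides CA9, 5 were tested (median 0.066). CA12, the other tumour-associated enzyme of the cell surface, was the only one called, from 26.7 ± 0.664 to 12.8 ± 1.39 CPM (log2 fold change -1.07, edgeR adjusted p = 5.74e-05). The CA12 change fell short of the fold threshold without MPM-1 replicate 2 (-0.95). Of 19 jumonji demethylases and related oxygenases tested besides KDM3A (median 0.21), 3 were called lower, namely RIOX1 (-2.12, adjusted p = 0.00246), HR (-1.44, adjusted p = 0.000236) and KDM2B (-1.17, adjusted p = 0.000150), and the RIOX1 call was lost without DMSO replicate 2 (-1.99, adjusted p = 0.0118) or MPM-1 replicate 3 (-1.82, adjusted p = 0.0101), and its value was -2.84 without MPM-1 replicate 2. These 3 are 15.8% of the list, against 8.75% of all genes called lower. KDM2B shares exonic bases with RNF34 on the other strand. None of the 19 was called higher by edgeR, against 5.58% of all genes, and 1 was called higher by DESeq2. At an edgeR adjusted p under 0.05 without a fold threshold 8 of the 19 were higher, as were 3596 of all 12982 genes. In bulk RNA, fewer transcripts per cell and fewer cells that carry them cannot be told apart, which holds for each fall given here.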

How the data were processed

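The authors deposited 1 table for 6 libraries of SW480 cells, with whole-number counts per gene and FPKM values, which they scaled for transcript length and library size, plus their own log2 fold change and FDR, not used here. The submitters' processing notes name HISAT2, DESeq2 and the build mm10, a mouse build, whereas the identifiers are human; roles, counter and annotation are not given in the sources used here. Coordinates are from GENCODE release 29 (GRCh38), by identifier. No per-sample column was left unused.

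Counts were analysed in R 4.3.3 with edgeR 4.0.16 (filterByExpr, TMM, quasi-likelihood, no covariates), limma 3.58.1 and DESeq2 1.42.0, with Benjamini-Hochberg adjustment over 12982 genes. CPM used a prior count of 2 in logarithms. The test was tried on simulated counts. The members and gene lists were chosen with earlier results of these data known. Named genes were the members, the 3 largest called rises and falls per list, 6 regulators, 3 families, and for the members with the most positive and most negative log2 fold change the 3 genes with the nearest profiles. One gene that this rule names is not reported here. Standard errors come from the fold change and its F statistic. Alternatives were other scalings, filters, tests and thresholds, limma on log2(FPKM + pseudocount), a replicate block and each library left out. Libraries of 1 treatment differed beyond sampling noise (chi-square per gene 15.4 to 33.2) and each was counted as a replicate.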

Additional observations from a re-analysis of the deposited data

How the results depend on the processing

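All 10 hypoxia genes kept their direction in the 14 alternative fits. The fit without a low-count filter is the main fit again, since that filter removed no gene. With library size alone the median of all genes moved from -0.026 to -0.18, EGLN1 to -0.70, KDM3A to 0.17 and HIF1A to 0.30. With limma on log2(FPKM + 0.1) the median was -0.15, EGLN1 -0.69, KDM3A 0.15 and HIF1A 0.30. With limma on log2(FPKM + 1), which shrinks low genes, values were ADM 2.17, CA9 -1.42, ANKRD37 -1.15, EGLN1 -0.64, EGLN3 -2.04, KDM3A 0.14, HIF1A 0.28 and EPAS1 0.92, with a median of -0.13.

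Calls over all genes were 351 higher and 716 lower with log2(FPKM + 1) and 445 higher with log2(FPKM + 0.1). At an adjusted p under 0.05 without a fold threshold, 3596 of all 12982 genes were higher and 3740 lower. At that threshold 9 of 26 oxygen-sensing genes were higher and 6 lower. Of 27 glucose metabolism genes 7 were higher and 13 lower, and of 33 ATF4 targets 30 were higher and 2 lower. Counts higher were 26 of 48 other HIF targets, 8 of 19 demethylases and 2 of 5 VEGF genes. They were 1 of 3 adrenomedullin genes and 1 of 5 carbonic anhydrases. With log2(FPKM + 1), oxygen sensing had 0 higher and 2 lower, and 0 other HIF targets, 0 demethylases and 0 carbonic anhydrases were lower. PPFIA4, FAM13A and RIOX1, called lower in the main fit, had a mean below 1 FPKM and were not tested by limma. With log2(FPKM + 0.1), 3 oxygen-sensing genes and 2 other HIF targets were lower. Glucose genes called higher numbered 1 with both FPKM settings and with library size alone, which gave 3 lower oxygen-sensing genes. With DESeq2 size factors or its test, 1 demethylase was higher. With each library left out in turn, lower calls ranged over 0 to 2 for oxygen sensing, 2 to 4 for other HIF targets, 1 to 2 for glucose genes and 0 to 1 for carbonic anhydrases, and higher calls over 1 to 2 for glucose genes and 0 to 2 for demethylases. FLT1 turned to -0.12 with library size alone and ranged from -0.10 (without MPM-1 replicate 3) to 0.16 with single libraries left out. The cause of these shifts was not tested.

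Same-numbered libraries showed no clear shared deviation (correlations across genes 0.0214, 0.114 and -0.0737), and differently numbered ones gave values of similar size. With only 3 libraries per treatment, these values cannot decide whether same-numbered libraries were paired. The replicate block gave 712 higher and 1120 lower genes and left CITED2 short of the p threshold (adjusted p = 0.0109), so 0 oxygen-sensing genes were lower. It also ended the FAM13A call (adjusted p = 0.0113), and other HIF targets had 11 higher and 3 lower. Depth limits chiefly CA9, which had 12 counts or fewer in each MPM-1 library.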
